A study of Mus musculus with 3 samples.

Results

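The effector and suppressor molecules of regulatory T (Treg) cells are described here through 9 genes, Areg, Il10, Ebi3, Fgl2, Gzmb, Entpd1, Nt5e, Lrrc32 and Penk, whose trimethylation of histone H3 at lysine 36 (H3K36me3) was read in mouse splenic and large intestine (LI) Treg cells. The genes were given as a list of names and not by a threshold on these values, but the list was drawn up with earlier results of the same data known. Every peak with its midpoint inside the annotated body of one of these genes was taken, which gave 66 of the 120910 peaks of the series. At least 1 peak lay in 8 of the 9 genes, against 11946 genes with a peak in the whole annotation, and Penk had none. At least 20 RPKM over both libraries was reached by 7 of the 9 genes and by 10886 genes in all, RPKM being coverage normalised for length and library size.

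The study compared CD3+CD4+Foxp3-YFP+ cells sorted from spleen with those from LI of adult Foxp3Cre-YFP mice at steady state on the C57BL/6 background. There were 3 libraries, of which 2 were used: 1 of spleen and 1 of LI, each made from cells pooled over males and females. The third, an input of splenic Treg chromatin, was not used here. With coverage taken to be counted in bins of 20 bp, the values imply about 29600000 mapped reads in spleen and 38100000 in LI. Another bin size would change both numbers. Peaks had been called in each tissue and then merged, and the table does not say in which tissue a peak was called. In these mice the Foxp3 locus drives YFP and Cre, so that the sort selects cells by Foxp3, and the cells of both tissues carry this allele. With 1 library per tissue no difference below has a replicate check or a test, and intervals cover counting error alone. In pooled cells, more cells that carry the mark and more of the mark per cell cannot be told apart.

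H3K36me3 is written by Setd2, which travels with elongating RNA polymerase II, so the mark builds up along the bodies of transcribed genes and is low at their starts. Treg cells restrain other immune cells through several routes. They secrete inhibitory cytokines such as interleukin-10, turn extracellular ATP into adenosine with the ectoenzymes CD39 and CD73, display latent TGF-beta on the surface protein GARP, and can kill with granzyme B. In barrier tissues they also support repair through amphiregulin. These routes order the results below.

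Most genes of the set carried more H3K36me3 in LI Treg cells. For each gene the peak values were added up in each library and the sums compared, with 0.5 RPKM added, as a log2 ratio of LI over spleen scaled to the library totals. The sum does not weigh peaks by length. Whether a gene passes 20 RPKM, or lies between 20 and 100 RPKM, thus depends partly on its number of peaks. Of the 7 genes past 20 RPKM, 6 were higher in LI and 1, Lrrc32, was higher in spleen. The median log2 ratio was 0.95 over these 7 genes and 0.0049 over all 10886 genes, whose middle 50% lay between -0.20 and 0.24. For the 7 genes it was 0.50 when the strongest peak of each was used alone, with 2 over 2-fold higher in LI, and 0.19 in peaks of at least 1 kb, where 4 genes were left. Over 2-fold higher signal in LI was seen for Areg, Il10 and Fgl2, 3 of 7 genes (42.9%), against a background of 3.42% of all genes, and 0 of 7 were over 2-fold higher in spleen, where the background was 2.04%. Any excess in LI, however small, was found in 50.7% of all genes. Areg, Il10, Ebi3 and Fgl2 had between 20 and 100 RPKM over both libraries, and of the 4286 genes in that range 5.81% were over 2-fold higher in LI. Il10, Ebi3 and Fgl2 reached 20 RPKM only through their LI values, so their place among the 7 already favoured LI, and both the count of 3 and the median, which is the ratio of Ebi3, rest on them. Of the other 4 genes, 1 (Areg) was over 2-fold higher in LI. The peaks of Ebi3 and Fgl2 also lay in other genes, and without such peaks 2 of 5 genes were over 2-fold higher in LI and the median was 0.62.

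Single peaks were counted as well. In LI 56 of the 66 peaks (84.8%) were higher, against 48.9% of all peaks, and 15 (22.7%) were over 2-fold higher, against 9% of all peaks. None of the 66 was over 2-fold higher in spleen, a size reached by 9.65% of all peaks. Since 53 of the 66 peaks lay in Entpd1 and Nt5e, the share of peaks higher in LI mostly describes those 2 genes. Peaks of a gene also share their source. Of the 15 peaks over 2-fold higher in LI, Entpd1 held 5, Nt5e 2, Areg 4, Fgl2 2, and Il10 and Gzmb 1 each.

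**Figure D1:**
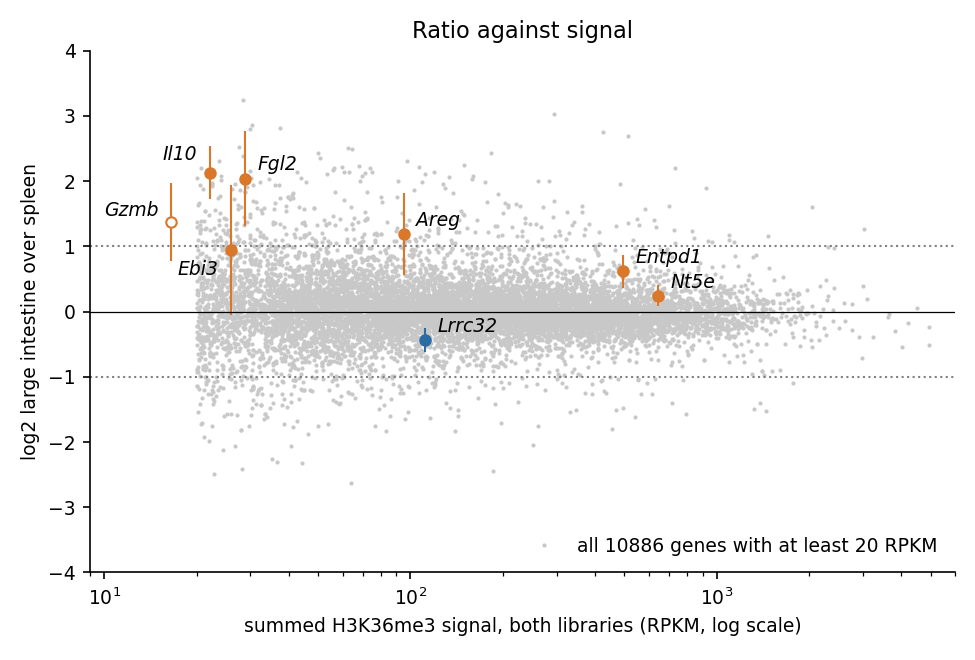
Log2 ratio of LI over spleen (vertical axis) against the summed H3K36me3 signal of both libraries in RPKM (horizontal axis, log scale) for 10886 genes in grey and 8 Treg effector and suppressor genes in colour. Vertical bars are approximate 95% counting intervals, dotted lines mark 2-fold, and Gzmb, below 20 RPKM, is drawn open. The summed signal depends partly on the number of peaks of a gene. Il10 and Fgl2 sit at its low end above 2-fold, with ratios of 2.13 and 2.04. Entpd1 and Nt5e lie at higher sums with ratios of 0.62 and 0.24, and Lrrc32 is below 0.

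Il10 encodes interleukin-10, a cytokine that damps the activation of macrophages, dendritic cells and T cells, and it is best known in this setting for keeping the response to gut microbes in check. The gene (ENSMUSG00000016529.5, mm10 chromosome 1, 131019845 to 131024974, plus strand) held 1 peak of 4626 bp, from 131019849 to 131024474, that covered 90.2% of the 5.1 kb body. The median over all genes was 38.2%. The peak measured 3.68 RPKM in spleen and 18.4 RPKM in LI. The log2 ratio was 2.13 (approximate 95% counting interval 1.73 to 2.53), a 4.38-fold difference. A ratio as high was found in 0.303% of all genes and in 0.583% of the genes between 20 and 100 RPKM. With 5 RPKM added in place of 0.5 RPKM the log2 ratio of Il10 was 1.39. The excess in LI went on beyond the gene. Within 5 kb on either side lay 5 upstream peaks and 1 downstream peak, and all 6 were higher in LI, with sums of 19.7 RPKM in spleen and 76.9 RPKM in LI and a log2 ratio of 1.89.

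The genes beside Il10 differed from one another. Il19, a cytokine gene of the same family on the lower-coordinate side, had no peak. Mapkapk2, a kinase gene 28.7 kb away on the other side, had 70.4 RPKM in spleen and 139.7 RPKM in LI over 10 peaks, a log2 ratio of 0.94 (0.54 to 1.34). Of these peaks, 3 also lay in another gene.

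Ebi3 encodes the beta chain that interleukin-35 and interleukin-27 share. Its body (ENSMUSG00000003206.7, chromosome 17, 55952640 to 55957022, plus strand) held 1 short peak of 437 bp, 9.97% of its length, over a coding exon 3.39 kb from the start. The peak measured 8.50 RPKM in spleen and 17.5 RPKM in LI, a log2 ratio of 0.95. With reads taken as 200 bp the counting interval ran from -0.05 to 1.95, and with reads of 75 bp from 0.30 to 1.60. Whether the difference can be told from counting error thus depends on the read length taken. The base composition of this peak stands out, and it is therefore shown as 300 bases of the plus strand at chr17:55956096-55956395 (mm10), with the 155 coding bases in capitals.
Ebi3 peak: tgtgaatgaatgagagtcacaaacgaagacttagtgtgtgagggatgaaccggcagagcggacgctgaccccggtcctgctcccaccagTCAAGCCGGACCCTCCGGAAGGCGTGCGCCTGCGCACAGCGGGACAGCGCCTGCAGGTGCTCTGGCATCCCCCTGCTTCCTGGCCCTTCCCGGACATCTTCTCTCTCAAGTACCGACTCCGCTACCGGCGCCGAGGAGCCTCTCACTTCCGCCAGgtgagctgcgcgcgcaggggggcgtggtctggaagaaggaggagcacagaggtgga
These bases held 23 CpG and were 64.3% G or C. The whole peak was 61.1% G or C, against a median of 46.5% over all peaks, and peaks of like composition had a median log2 ratio of 0.35. Its midpoint also lay in the antisense gene Gm16712, and since ChIP reads carry no strand of transcription, the 2 genes cannot be told apart here. The genes on either side had ratios of -0.38 (Zfp119b, -1.07 to 0.31) and -0.03 (Yju2, -0.21 to 0.16), and the peak nearest past the end of Ebi3, which lies in Yju2, measured 17.8 RPKM in spleen and 17.9 RPKM in LI.

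Fgl2 encodes fibrinogen-like protein 2, which Treg cells secrete and which acts on antigen-presenting cells through inhibitory Fc receptors. The gene (ENSMUSG00000039899.5, chromosome 5, 21372642 to 21378374, plus strand) held 2 peaks. The peak over the second exon, 1203 bp long, measured 4.36 RPKM in spleen and 15.3 RPKM in LI, a log2 ratio of 1.66. The other, 721 bp long with its midpoint in the 3' UTR, measured 0.83 RPKM in spleen and 8.28 RPKM in LI, a log2 ratio of 2.68 that rests on the worth of 1.6 reads of 200 bp in spleen and 20.8 in LI. Both peaks were low in spleen and higher in LI. The sums were 5.19 and 23.6 RPKM, with a log2 ratio of 2.04 (1.31 to 2.77), 4.10-fold, a ratio reached by 0.395% of all genes. The stronger peak is shown over the start of that exon because it carries most of the signal of the gene, as 300 bases of the plus strand at chr5:21375201-21375500 (mm10), with the 247 coding bases in capitals.
Fgl2 peak: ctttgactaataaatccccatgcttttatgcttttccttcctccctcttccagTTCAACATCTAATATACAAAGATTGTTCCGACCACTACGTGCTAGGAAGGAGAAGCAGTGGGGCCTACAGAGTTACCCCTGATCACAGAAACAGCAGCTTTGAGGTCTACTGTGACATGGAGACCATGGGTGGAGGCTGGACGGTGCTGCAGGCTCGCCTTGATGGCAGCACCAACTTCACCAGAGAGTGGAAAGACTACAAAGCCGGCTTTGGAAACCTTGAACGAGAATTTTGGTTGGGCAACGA
Fgl2 lies within the body of Ccdc146, a gene on the opposite strand, and the signal of the 2 genes cannot be told apart where they overlap. Ccdc146 had 15.5 RPKM in spleen and 43.4 RPKM in LI over 4 peaks, of which 3 also lay in another gene, and a log2 ratio of 1.41 (0.75 to 2.07). The genes beyond it were unlike each other, with ratios of -0.25 (-0.43 to -0.06) for Gsap and 0.81 (0.38 to 1.23) for Fam185a. A further peak 706 bp past the end of Fgl2 measured 5.58 RPKM in spleen and 11.1 RPKM in LI.

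Areg encodes amphiregulin, a ligand of the epidermal growth factor receptor that Treg cells release in damaged tissue and that promotes epithelial repair. The gene (ENSMUSG00000029378.5, chromosome 5, 91139599 to 91148432, plus strand) held 6 peaks, 5 with the midpoint in an intron and 1 in a coding exon, that covered 25.2% of the 8.8 kb body. They summed to 28.1 RPKM in spleen and 66.9 RPKM in LI, a log2 ratio of 1.19 (0.57 to 1.82), or 2.28-fold. A ratio as high was found in 2.31% of all genes and in 3.92% of the genes between 20 and 100 RPKM. All 6 peaks were higher in LI and 4 were over 2-fold higher, but their ratios were uneven, from 0.50 to 3.16. The peak with the most signal in both tissues, 9.54 RPKM in spleen and 14.1 RPKM in LI, had the lowest ratio, so that the gene would stand at 0.50 on its strongest peak alone. In LI the 6 peaks lay close together, between 8.76 and 14.1 RPKM, while in spleen they ran from 0.51 to 9.54 RPKM.

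The Areg peak with the highest ratio, 0.51 RPKM in spleen and 8.76 RPKM in LI, lies in an intron 5.78 kb from the start of the gene. These values are worth 0.4 and 8.1 reads of 200 bp, so its ratio is imprecise and depends on the 0.5 RPKM added. It is shown whole, as 267 bases of the plus strand at chr5:91145383-91145649 (mm10), because its base composition runs against its ratio. It has no coding base, so no letter is in capitals.
Areg peak: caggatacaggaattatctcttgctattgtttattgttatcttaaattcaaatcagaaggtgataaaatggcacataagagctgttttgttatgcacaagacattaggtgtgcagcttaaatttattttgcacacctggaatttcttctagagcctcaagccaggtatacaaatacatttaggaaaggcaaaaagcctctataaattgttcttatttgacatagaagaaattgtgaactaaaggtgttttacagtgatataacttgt
It was 32.6% G or C and held 0 CpG. Peaks of like composition had a median log2 ratio of -0.53, against 3.16 here. Over the genes beside Areg, Ereg (epiregulin) and Btc (betacellulin), 2 other ligands of the same receptor, no peak was found.

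Gzmb encodes granzyme B, a serine protease that Treg cells, like cytotoxic T cells, use to kill target cells. The gene (ENSMUSG00000015437.5, chromosome 14, 56258838 to 56262260, minus strand) held 1 peak of 2040 bp over 59.6% of its body, with 4.27 RPKM in spleen and 12.2 RPKM in LI. The log2 ratio was 1.37 (0.77 to 1.97), a 2.58-fold difference, but the sum of 16.5 RPKM left the gene below the 20 RPKM asked of all genes, and it is not among the 7 counted above. Granzyme genes lie in a cluster of near relatives, and how reads that match several of them were handled is not given in the sources used here. The nearest coding gene on either side, Gzmc at 24.2 kb, itself a granzyme gene, and Atp12a at 102.8 kb, had no peak.

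**Figure D2:**
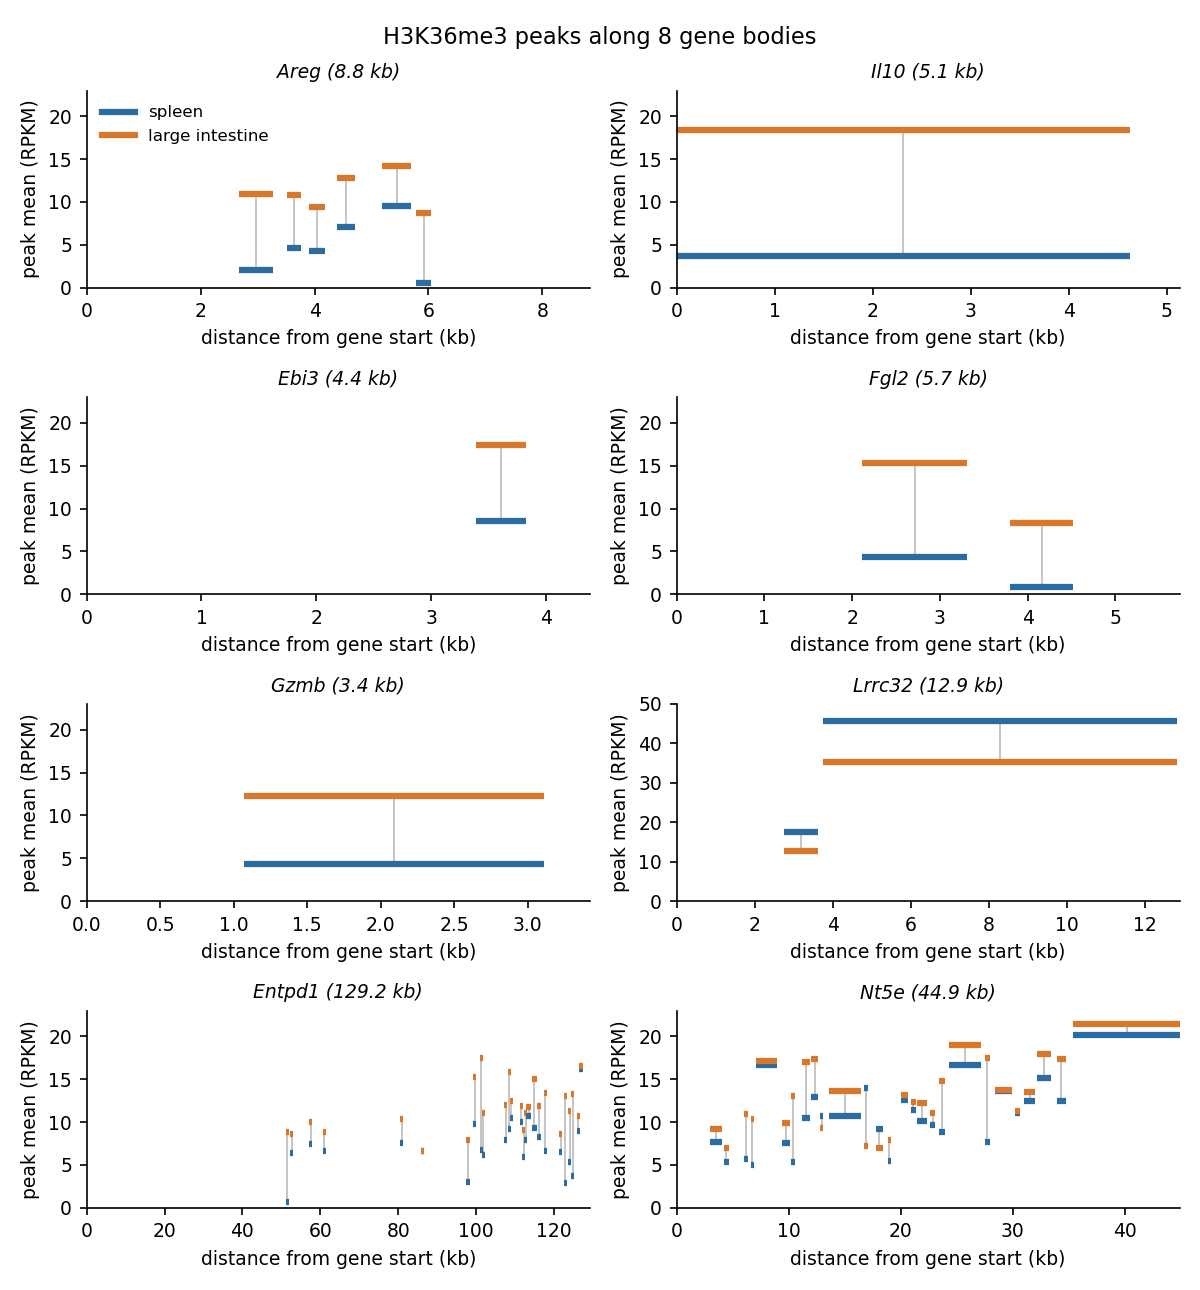
H3K36me3 peaks along 8 gene bodies: distance from the gene start in kb (horizontal axis, read in the direction of transcription) against the mean RPKM of each peak (vertical axis), with spleen in blue, LI in orange and a grey line joining the 2 values of a peak. The vertical axis of Lrrc32 covers a wider range than the others. The Il10 peak spans nearly the whole gene with the libraries far apart, at 3.68 and 18.4 RPKM, Entpd1 has no peak before 51.1 kb, and in Lrrc32 spleen lies above LI.

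Entpd1 encodes CD39, which removes phosphates from extracellular ATP and ADP and is abundant on mouse Treg cells. The gene (ENSMUSG00000048120.16, chromosome 19, 40612366 to 40741602, plus strand) is 129.2 kb long and held 26 peaks, 22 of them with the midpoint in an intron. They summed to 191.2 RPKM in spleen and 303.0 RPKM in LI, a log2 ratio of 0.62 (0.37 to 0.87), or 1.53-fold, which 8.65% of all genes reached. Single peaks had a median of 7.09 RPKM (0.62 to 16.2) in spleen and 11.6 RPKM (6.69 to 17.4) in LI. LI was higher in 24 peaks, 5 of them over 2-fold, and spleen was higher in 2, with log2 ratios of -0.04 and -0.02 after scaling. The 2 ranges overlapped broadly, and the strongest peak, at 16.2 and 16.5 RPKM, gave a ratio of -0.02, so the difference rests on many smaller peaks. The median log2 ratio was 0.52 over the first 13 peaks and 0.45 over the last 13.

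The Entpd1 peaks were not spread over the whole annotated gene. RefSeq gives transcripts from 2 starts, at 40612366 and 40659770, 47.4 kb apart, and of 11 GENCODE transcripts 3 begin within 1 kb of the first and 5 within 1 kb of the second. Between the starts lay 0 peaks, and all 26 lay after the second, the first of them 3.7 kb downstream. The peaks covered 9.45% of the full body and 14.9% of the part after the second start. To set these starts side by side, the 132 bases directly before each are shown from the RefSeq promoter table (GRCm38.p6, the assembly of mm10), plus strand, at chr19:40612234-40612365 and chr19:40659638-40659769, with each CpG in capitals. This length is the gap between Entpd1 and Tctn3, the gene that runs the other way from the first start.
Entpd1 first start: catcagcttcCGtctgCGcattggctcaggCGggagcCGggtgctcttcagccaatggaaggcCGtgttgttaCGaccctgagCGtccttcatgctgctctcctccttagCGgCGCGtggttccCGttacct
Entpd1 second start: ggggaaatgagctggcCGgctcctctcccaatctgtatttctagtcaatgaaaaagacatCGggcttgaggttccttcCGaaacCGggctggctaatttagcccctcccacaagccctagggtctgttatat
The first window held 11 CpG and was 61.4% G or C, and the second held 4 and was 51.5% G or C. Among 32851 promoter windows of this length, which had a median of 3 CpG and 54.5% G or C, at least as many CpG were found in 22.8% for the first and in 49% for the second. Tctn3 had 38.3 RPKM in spleen and 51.9 RPKM in LI over 4 peaks, a log2 ratio of 0.39 (0.01 to 0.77), and Cc2d2b, on the other side of Entpd1, had no peak.

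Nt5e encodes CD73, which acts after CD39 and turns AMP into adenosine. The gene (ENSMUSG00000032420.8, chromosome 9, 88327197 to 88372092, plus strand) held 27 peaks over 70.5% of its 44.9 kb body, with sums of 288.8 RPKM in spleen and 352.5 RPKM in LI. The log2 ratio of 0.24 (0.08 to 0.40), 1.18-fold, was exceeded or equalled by 24.7% of all genes, and it was the smallest among the 7 genes by size. LI was higher in 21 peaks, 2 of them over 2-fold, and spleen in 6, with single ratios between -0.95 and 1.18. Peaks had a median of 10.7 RPKM (4.99 to 20.2) in spleen and 13.1 RPKM (6.94 to 21.5) in LI. The strongest peak alone gave a ratio of 0.04.

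Along Nt5e the mark rose towards the end of the gene in both tissues. The body was cut into 3 equal stretches. In the first, peaks covered 45.4% of the bases and averaged 10.6 RPKM per covered base in spleen and 13.3 RPKM in LI. In the next the cover was 78.7% and the averages were 12.3 and 14.2 RPKM. In the last the cover was 87.4%, with 18.3 RPKM in spleen and 19.9 RPKM in LI. The longest peak, 9516 bp at the end of the gene, measured 20.2 and 21.5 RPKM. Within 5 kb past the end lay 4 further peaks, 3 of them higher in LI. Snx14, 4.7 kb past Nt5e, had a log2 ratio of -0.16 (-0.37 to 0.05), and Tbx18, far on the other side, had no peak. Of the 33 Snx14 peaks, 14 also lay in another gene.

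Lrrc32 encodes GARP, the surface protein that holds latent TGF-beta on activated Treg cells. It was the gene of the set with more H3K36me3 in spleen. The gene (ENSMUSG00000090958.2, chromosome 7, 98489283 to 98502181, plus strand) held a peak of 870 bp with 17.6 RPKM in spleen and 12.7 RPKM in LI, and a peak of 9064 bp, a length reached by 0.67% of all peaks, with 45.7 RPKM in spleen and 35.4 RPKM in LI. Both peaks were thus higher in spleen. The sums of 63.2 and 48.1 RPKM gave a log2 ratio of -0.44 (-0.63 to -0.25), 1.35-fold higher in spleen, and 10.1% of all genes had a ratio as low. Peaks of like base composition had a median of 0.29, and with a correction for GC content the ratio of Lrrc32 was -0.70. Emsy, on the higher-coordinate side, had a ratio of -0.12 (-0.27 to 0.02), and Gucy2d, on the other side, had no peak.

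Penk encodes proenkephalin, the precursor of opioid peptides that Treg cells of several tissues make. Its body (ENSMUSG00000045573.9, chromosome 4, 4133531 to 4138819, minus strand) held no peak, and the nearest peak lay 190.6 kb away. The table lists only regions called as peaks, so no value and no upper limit can be given for Penk in either tissue. Of the nearest coding genes, Sdr16c6 had no peak and Impad1, 623.7 kb away, had a ratio of -0.26 (-0.68 to 0.16).

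Levels were then compared between genes as mean RPKM per covered base, which allows for peak length. In spleen the order was Lrrc32 at 43.2 RPKM, Nt5e at 14.4, Ebi3 at 8.50, Entpd1 at 8.45, Areg at 4.87, Gzmb at 4.27, Il10 at 3.68 and Fgl2 at 3.04 RPKM. By their 95% Poisson counting intervals the last 4 overlapped one another, and the wide interval of Ebi3 (4.08 to 15.6) overlapped those of Nt5e, Entpd1 and all of the last 4. Lrrc32 (40.7 to 45.8) stood above Nt5e (13.6 to 15.3), and Entpd1 (7.49 to 9.50) above Areg (3.27 to 6.98). An even spread of reads over the genome, in bins of 20 bp, would give 1.72 RPKM for reads of 75 bp. For reads extended to 200 bp it would give 4.02 RPKM. The last 4 genes lay between 3.04 and 4.87 RPKM in spleen. Their intervals, made for reads of 200 bp, all included 4.02 RPKM. No intervals of these levels were made for reads of 75 bp, so none can be set against 1.72 RPKM.

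In LI the order was Lrrc32 at 33.4 RPKM, Il10 at 18.4, Ebi3 at 17.5, Nt5e at 16.4, Fgl2 at 12.7, Entpd1 at 12.5, Gzmb at 12.2 and Areg at 11.5 RPKM. Past Lrrc32, each gene's interval overlapped that of its neighbour in the order. Levels ran from 3.04 to 43.2 RPKM in spleen and from 11.5 to 33.4 RPKM in LI. Il10 moved furthest in rank, with 3.84% of all peaks below its level in spleen and 92.4% below it in LI. For Lrrc32 these shares were 99.9% and 99.5%. The 5 genes for secreted products and granzyme B, namely Areg, Il10, Ebi3, Fgl2 and Gzmb, held 11 peaks. All 11 lay below the spleen median of 10.4 RPKM and 8 lay above the LI median of 10.5 RPKM. A gene low in spleen can be listed here through peaks called in LI alone, so these counts already favoured LI. The calling tissue of each peak is not known.

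**Figure D3:**
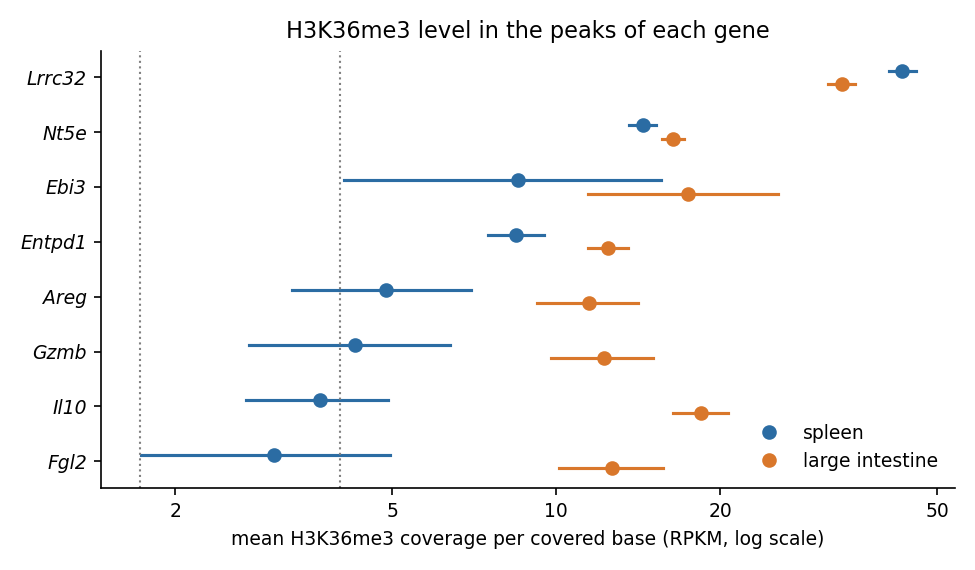
Mean H3K36me3 coverage per covered base in RPKM (horizontal axis, log scale) of 8 genes in spleen (blue) and LI (orange), ordered by the spleen level. Bars are 95% Poisson counting intervals with reads taken to cover 200 bp. Dotted lines show an even spread of reads over the genome in bins of 20 bp. They stand at 1.72 RPKM for reads of 75 bp and 4.02 RPKM for reads of 200 bp. Spleen levels run from 3.04 to 43.2 RPKM and LI levels from 11.5 to 33.4 RPKM.

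Partners of these molecules were described with a list of 61 genes in 7 roles. A peak was found in 37 and at least 20 RPKM in 36, of which 16 were higher in LI and 20 in spleen. Their median log2 ratio was -0.08, and 1 of 36 (2.78%, against 3.42% of all genes) was over 2-fold higher in LI and 0 in spleen. That gene passed 20 RPKM only through its LI value.

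That 1 gene was Hbegf, which encodes heparin-binding EGF-like growth factor, a further ligand of the receptor of amphiregulin. It had 5.43 RPKM in spleen and 24.7 RPKM in LI over 2 peaks, a log2 ratio of 2.04 (0.99 to 3.10). Among the 7 genes of amphiregulin release and sensing, 4 passed 20 RPKM, all 4 were higher in LI and their median was 0.67, with Hbegf among the 4 through its LI value. The gene with the most signal, Adam17, which encodes the protease that sheds amphiregulin from the cell surface, had 209.4 RPKM in spleen and 218.6 RPKM in LI, a log2 ratio of 0.02 (-0.21 to 0.25). Egfr, the receptor gene itself, had no peak.

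Of 13 genes of adenosine and ATP handling, 9 passed 20 RPKM, 3 higher in LI and 6 in spleen, with a median of -0.23. Dpp4, which encodes CD26, the surface protein that binds adenosine deaminase, had the most signal, with 309.4 RPKM in spleen and 210.1 RPKM in LI and a log2 ratio of -0.60 (-0.84 to -0.36), although 23 of its 29 peaks also lay in another gene. Adora2a, the adenosine receptor gene of T cells, had a ratio of 0.65 (0.46 to 0.84) and Ada, the gene of adenosine deaminase, one of -0.71 (-1.17 to -0.25).

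Of 10 genes of interleukin-10 and interleukin-35, 7 passed 20 RPKM, 3 higher in LI and 4 in spleen, with a median of -0.05. Stat3, which carries the signal of the interleukin-10 receptor, had 245.9 RPKM in spleen and 389.3 RPKM in LI, a log2 ratio of 0.62 (0.49 to 0.75). Il12a, which encodes the partner chain of Ebi3 in interleukin-35, had no peak.

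Of 9 genes of TGF-beta display, 7 passed, 4 higher in LI and 3 in spleen, with a median of 0.15. Itgav, which encodes the integrin alpha-V chain used to release TGF-beta, had the most signal, 436.3 RPKM in spleen and 583.8 RPKM in LI, with a log2 ratio of 0.37 (0.25 to 0.50), and 13 of its 43 peaks also lay in another gene. Of 13 genes of granzyme B delivery and restraint, 8 passed, 2 higher in LI and 6 in spleen, with a median of -0.17. Rab27a, which moves lytic granules to the membrane, had 309.9 and 279.3 RPKM and a ratio of -0.20 (-0.42 to 0.03), and Prf1, the gene of perforin, had no peak. Of the 6 genes of enkephalin processing and sensing, Oprm1 (the mu opioid receptor) alone had peaks, with 782.6 RPKM in spleen and 574.8 RPKM in LI and a ratio of -0.49 (-0.61 to -0.37), but all 65 of them also lay in another gene and cannot be assigned to it. The 3 genes of the Fgl2 receptor and its relatives had no peak.

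**Figure D4:**
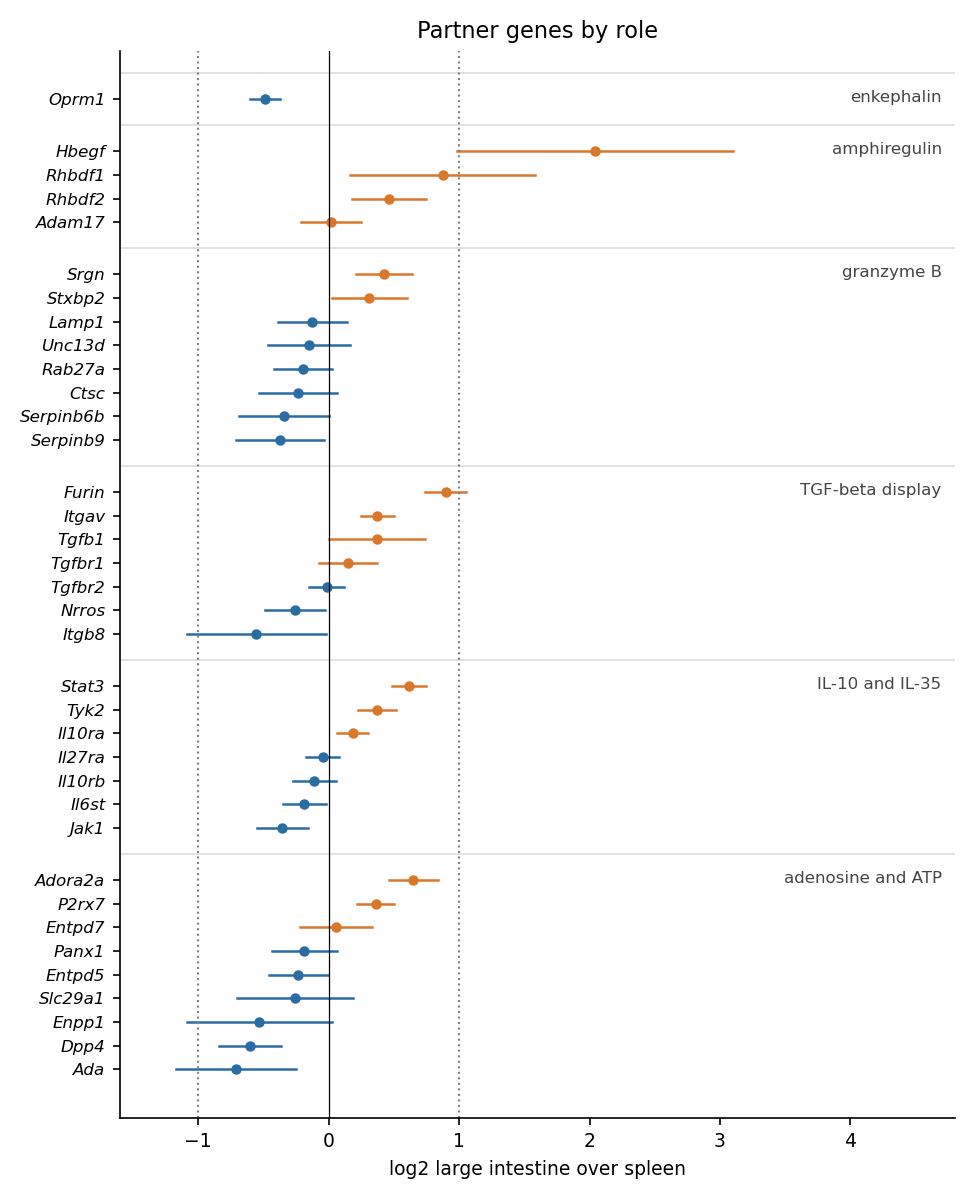
Log2 ratio of LI over spleen (horizontal axis) of the 36 partner genes past 20 RPKM, grouped by role and ordered by ratio within each role, orange where LI was higher and blue where spleen was higher. Bars are approximate 95% counting intervals and dotted lines mark 2-fold. Hbegf alone lies past 2-fold, at 2.04, and 20 of the 36 genes lie below 0.

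Markers were read for the labelled cell type and for other cells that a sort could hold. All 6 Treg markers passed 20 RPKM, with log2 ratios of 0.19 for Foxp3 (-0.01 to 0.40), whose 9 peaks all lay in another gene as well, -0.08 for Il2ra, 0.59 for Ctla4, -0.55 for Ikzf2, 0.13 for Cd4 and -0.41 for Cd3e. Of the 115 Ikzf2 peaks 12 also lay in another gene, as did 1 of the 3 Cd3e peaks. Markers of other cells were mixed. Ms4a1 of B cells, Lyz2, Itgam, Adgre1 and Mrc1 of myeloid cells, Cd8a of CD8 T cells and Cpa3 and Mcpt1 of mast cells had no peak, while other genes of the same lists had some. Of the 6 epithelial markers 3 had a peak, summing to 55.1 RPKM in spleen and 93.8 RPKM in LI, while Cdh1, Krt8 and Krt20 had none. Epcam, at 25.3 and 47.2 RPKM, had a log2 ratio of 0.84 (0.20 to 1.49). The 3 B cell markers with a peak summed to 63.6 RPKM in spleen and 40.0 RPKM in LI, of which Cd79a gave 47.2 and 29.8 RPKM. Cd22 gave 12.4 and 0.25 RPKM, while Pax5 went the other way, with 4.05 and 9.91 RPKM in a peak also in another gene. Both stayed below 20 RPKM over both libraries. A peak was also found in 2 of 6 myeloid markers, Csf1r and Cd68 (29.7 and 31.3 RPKM together), and in 1 of 5 CD8 and NK markers, Cd8b1 (21.1 and 9.46 RPKM). Of the 5 mast cell and ILC2 markers 2 had a peak, 107.7 and 272.6 RPKM, of which Il1rl1, a gene that Treg cells also use, gave 106.4 and 265.1 RPKM and Kit 1.35 and 7.48 RPKM. The part of such cells in the values of Areg and the other genes was not tested.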

How the data were processed

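H3K36me3 ChIP-seq was analysed in 1 library of splenic and 1 of LI Treg cells. About 29600000 and 38100000 mapped reads were inferred from the smallest step of the values, with coverage bins taken as 20 bp. Per the methods and the submitters' processing notes, single-end 75 nt reads were aligned by the authors to mm10 (Bowtie2), peaks were called per tissue with MACS2 at p 0.01 against the input, merged with bedtools, and RPKM coverage was averaged over each merged peak. The deposited values are therefore RPKM, although the table is called raw counts, and no count test was used. Tool versions are not given in the sources used here.

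Peaks were assigned by midpoint to GENCODE M21 gene bodies, and a peak could belong to several overlapping genes. The 2 libraries were scaled to their totals (log2 of the total ratio 0.0455) and RPKM were summed per gene. Log2 ratios used a pseudocount of 0.5 RPKM, which by itself makes the change of low genes smaller. The net direction of error in low genes was not tested. The filter was 20 RPKM over both libraries. Counting intervals (95%) took reads as independent and 200 bp long, and cover counting error only. Member names and lists were chosen with earlier results of these data known. Genes are named by rule: all members, the nearest coding gene on each side, per role the partner with the most signal and partners past 2-fold, and 6 Treg markers. Further list genes were named after their values were seen, and 1 marker is not reported here. Chromosome ends were compared with GRCm38.p6 (0 of 21 had a peak past the end), and 6 of 9 members had a RefSeq promoter. The calculation was tested on simulated data. The simulated reads followed the same 200 bp rule as the intervals, in the peaks already called. The simulation therefore could not check that read length, the calling of peaks or the spread between libraries. Python 3.11.15, numpy 2.4.6, scipy 1.17.1, pandas 2.3.3 and matplotlib 3.10.9 were used.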

Additional observations from a re-analysis of the deposited data

How the results depend on the processing

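Alternatives were another scaling, a pseudocount of 5 RPKM, no filter and a filter of 200 RPKM, weighting by length, the strongest peak of each gene, peaks of at least 1 kb, other assignment rules and a GC correction. The range of 20 to 100 RPKM was added after seeing the data. Of 91 recomputed ratios of single genes, 85 lay inside the interval of the value given in the report, 5 lay outside it with the same sign and 1 reversed. In its strongest peak alone, Entpd1 turned to -0.02. There Areg moved to 0.50 and Nt5e to 0.04. Il10 moved to 1.39 with a pseudocount of 5 RPKM, Entpd1 to 0.26 in peaks of at least 1 kb and Lrrc32 to -0.70 after GC correction. Ratios are given over the settings in which a gene kept a peak, 9 for Ebi3, 11 for Areg and Fgl2 and 12 for the others. Ebi3 had no value by nearest transcript start, in peaks of no other gene and in peaks of at least 1 kb. The ratio of Areg ran from 0.50 to 1.41, of Il10 from 1.39 to 2.20 and of Fgl2 from 1.44 to 2.16. That of Ebi3 ran from 0.61 to 1.00, of Gzmb from 0.85 to 1.42 and of Entpd1 from -0.02 to 0.66. Nt5e ran from 0.04 to 0.29 and Lrrc32 from -0.70 to -0.39.

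The median of the genes ran from 0.19 to 1.07. It was 0.50 in the strongest peaks, 0.19 in peaks of at least 1 kb, where 1 gene stayed over 2-fold higher in LI among 4 left, and 0.43 at 200 RPKM, where 0 were over 2-fold higher among 2 left. The share of all genes past 2-fold in either direction was 5.46%, against 9.06% with no filter, 2.52% at 200 RPKM and 9.47% between 20 and 100 RPKM. Fewer genes were left under the stricter settings, and the cause of the other shifts was not tested. Low signal limits Ebi3, Gzmb, Il10, Fgl2 and Areg. Their spleen values are worth between 10.1 (Ebi3) and 46.1 (Il10) reads of 200 bp. Having 1 library per tissue limits every value. No replicate could be left out, and no paired analysis was possible because each tissue had 1 library.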
